A study of Rattus norvegicus with 7 samples.

Results

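Each of the 4 Hox clusters of the rat genome carries 1 of the miRNAs described here: rno-miR-10a-5p, rno-miR-10b-5p, rno-miR-196a-5p and rno-miR-196b-5p, written below without the rat prefix. They were taken by name from the array files, 4 of the 719 miRNAs on the array and 8 of its 1730 probes. RNA came from rat primary skeletal muscle cells (RSkMC), bought from ECACC and isolated from neonatal muscle that the labels call limbal, read here as limb muscle. The cells were frozen at second passage, grown in 10% fetal bovine serum, and differentiated in 2% horse serum for 11 days. Of the 7 samples, 3 were untreated controls and 4 were differentiated with interleukin-6 (IL-6) at 1 ng/ml, 1 array for each sample. IL-6 is a cytokine that acts through gp130 and the JAK-STAT3 pathway. The growth protocol mentions IL-6 on the control samples as well; their titles and the series design name them untreated, and the groups follow these. Whether replicates were grown as separate cultures is not given, so the p-values cover the spread among these samples alone, which may be technical.

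Hox genes encode homeobox transcription factors that give cells their position along the body axis and the limb, and their order in a cluster follows the order in which they are expressed along the body. The miR-10 and miR-196 hairpins lie between or within Hox genes of these clusters and tend to be expressed with their neighbours. Both families repress Hox transcripts. miR-196 is known for directing cleavage of Hoxb8 mRNA, to which it pairs almost along its whole length, and acts upstream of Hoxb8 in limb development; miR-10b is known for repressing HOXD10, and miR-10a for binding transcripts of ribosomal proteins.

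The mature sequences are given because the members of a family differ by a single base, which decides what the array can tell apart. They are the RefSeq entries of assembly GRCr8, all 5 matched by name, written 5′ to 3′ with the seed, bases 2 to 8, in capitals. miR-196c-5p, a further Hox-cluster miRNA, is shown for comparison.
miR-10a-5p: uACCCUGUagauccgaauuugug
miR-10b-5p: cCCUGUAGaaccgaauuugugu
miR-196a-5p: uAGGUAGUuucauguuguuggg
miR-196b-5p: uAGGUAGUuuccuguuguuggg
miR-196c-5p: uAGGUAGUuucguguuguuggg

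The miR-196 members share the seed AGGUAGU, which no other of the 693 mature rat names in the table has at these bases. The same letters start at base 3 in 8 let-7 and miR-98 sequences. Substitutions are written as the base of the first miRNA, its position from the 5′ end of that miRNA, and the base of the second. miR-196a-5p and miR-196b-5p differ by A12C over 22 aligned bases, miR-196a-5p and miR-196c-5p by A12G, and miR-196b-5p and miR-196c-5p by C12G. miR-10a-5p and miR-10b-5p differ by U12A over 21 aligned bases. The annotated start of miR-10b-5p lies 2 bases downstream of that of miR-10a-5p, and the bases ua precede it in the Mir10b hairpin. As annotated, miR-10a-5p has the seed ACCCUGU and miR-10b-5p the seed CCUGUAG, and ACCCUGU runs across the annotated start in the Mir10b hairpin. An array probe that covers the shared 3′ part cannot show which start the molecules had.

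Each member lies in another Hox cluster. miR-10a-5p is at chr10:81779730-81779752 on the plus strand, with its hairpin 1271 bp from Hoxb4 and 11589 bp from Hoxb5. miR-10b-5p is at chr3:80035886-80035907 on the plus strand, inside the annotated span of Hoxd4. miR-196a-5p is at chr7:135988900-135988921 on the plus strand, with its hairpin 1433 bp from Hoxc10 and 8306 bp from Hoxc9. miR-196b-5p is at chr4:82661149-82661170 on the minus strand, with its hairpin between Hoxa10, at 1018 bp, and Hoxa9, at 1142 bp. The miR-10 hairpins thus sit by the group 4 genes of their clusters and the miR-196 hairpins by the group 9 and 10 genes. miR-196c-5p is at chr10:81727561-81727582 on the plus strand, in the Hoxb cluster between Hoxb9 and Hoxb13, so it shares a cluster with miR-10a-5p.

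**Figure D1:**
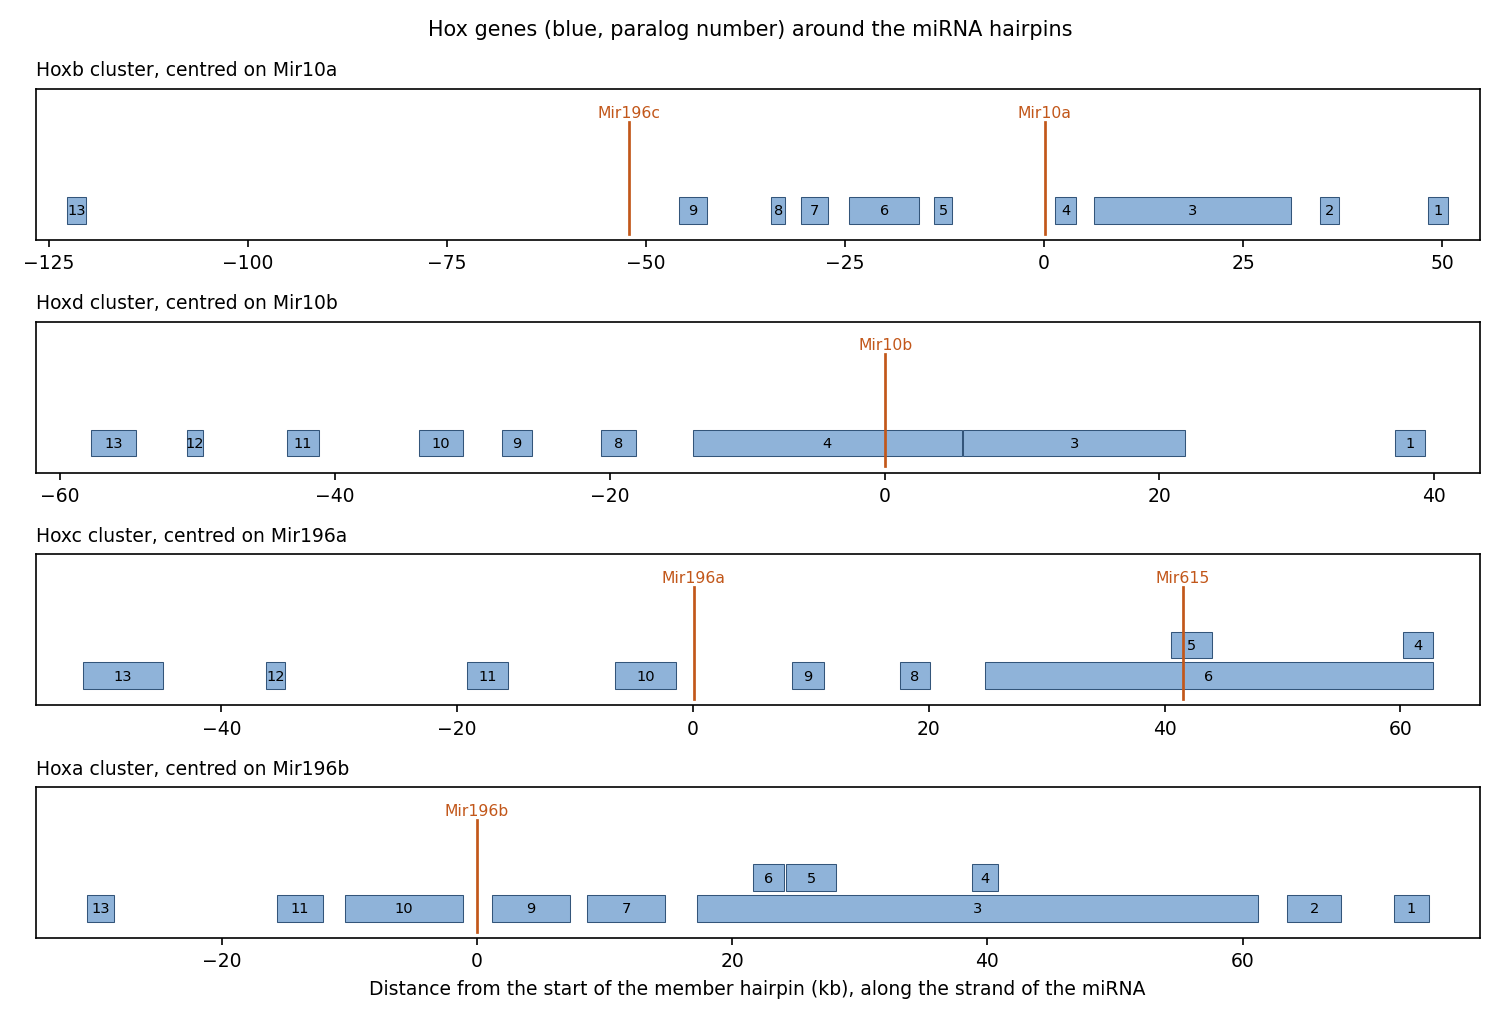
Hox genes (blue boxes with their paralog number) and miRNA hairpins (orange lines) of each cluster, plotted by distance in kb from the start of the member hairpin along the strand of the miRNA, from RefSeq GRCr8. The miR-10 hairpins lie by or within group 4 Hox genes, and the miR-196 hairpins on the 5′ side of group 9 genes.

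Every member has 2 probes on the array. The brighter one, by the mean over all arrays, gave the member its value. These are the probes used, with the base opposite the variable position of the family in capitals.
miR-10a-5p probe: cacaaattcggAtctacagggt
miR-10b-5p probe: acacaaattcggTtctacaggg
miR-196a-5p probe: cccaacaacaTgaaactaccta
miR-196b-5p probe: cccaacaacaGgaaactacc

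Each miR-196 probe leaves 1 base unpaired against the other miR-196 miRNAs. Against the annotated sequences, the miR-10a-5p probe shown leaves 2 bases unpaired on miR-10b-5p, and the miR-10b-5p probe shown 2 on miR-10a-5p. In each case 1 of the 2 is the variable base and the other lies past the annotated end of the miRNA. On a miR-10b-5p molecule that started 2 bases upstream, the miR-10a-5p probe would leave only the variable base unpaired. The variable base lies inside every probe. How much signal a probe takes from the other members of its family was not tested. The miR-196b-5p probes, of 20 and 19 bases, do not reach the first 2 and 3 bases of the miRNA, whereas the miR-196a-5p probe shown covers all 22. Levels of different probes depend on their length and binding, so no level below is set against that of another miRNA.

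Values are processed spot intensities, averaged over the spots of a probe and scaled so that the 75th percentile of 268 bright probes is equal on all arrays. They are called scaled intensities here, and differences are given on their log2 scale, IL-6 minus control. A floor of 15.7 stands in for lower values. Testing was limited to the 181 miRNAs detected on all control arrays or on all IL-6 arrays. The groups were compared with limma over these 181, with Benjamini-Hochberg adjustment and a threshold of 0.05. The exact two-sided permutation test of a single value over the 35 splits of 7 arrays cannot give a p below 0.0286.

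Between 174 and 207 miRNAs were detected on an array, and no spot was saturated. All controls lay in slide row 1 and all IL-6 arrays in row 2, and an effect of the row and one of IL-6 cannot be told apart. The labelled cell type was checked against markers. Of 7 muscle miRNAs, with miR-206-3p, miR-1-3p and miR-133a-3p among them, 0 were detected on any array, and 0 of their 105 probe measurements were well above background. The labelled muscle identity was thus not borne out by these markers. Of 5 miRNAs of fibroblasts and smooth muscle, 5 were detected on all arrays, with log2 differences from -0.13 to 0.03 and adjusted p from 0.420 to 0.894 (limma). Epithelial markers were detected for 0 of 7 and endothelial ones for 0 of 2. For nerve it was 3 of 8, with log2 differences from -0.04 to 0.25 (limma adjusted p 0.236 to 0.788), and for blood 1 of 6, on a single array. In RNA from whole cultures, fewer cells of a type and less RNA per cell cannot be told apart.

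All 4 members were detected on all 7 arrays. With IL-6, miR-196b-5p was higher by 12.7% and passed the test, while miR-10a-5p, miR-10b-5p and miR-196a-5p lay 3.22%, 1.91% and 2.30% below the controls and did not pass. So 1 of 4 members was called higher and 0 lower. Over all 181 tested miRNAs, 9 (4.97%) were called higher and 8 (4.42%) lower by the same limma fit. The median log2 difference of the 4 members was -0.03, with 3 of 4 below 0, beside 0.02 over all tested miRNAs. The call of miR-196b-5p depended on the processing, the test and the arrays used. It held under 10 of 29 alternatives and was lost under 19. The difference of miR-196b-5p was positive under all 29, but many of them could not change its sign. Other floors and filters and the exact permutation test left the difference at its main value. As every IL-6 array lay above every control, leaving out, averaging, weighting or blocking arrays could not turn it negative. The exact permutation test, counted among the losses, could not pass after adjustment unless most of the 181 reached its smallest p.

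miR-10a-5p, from the Hoxb cluster, had scaled intensities of 47.4, 44.5 and 44.5 in controls 1 to 3 and of 39.9, 45.1, 44.7 and 46.5 in IL-6 replicates 1 to 4. IL-6 replicate 1 was the lowest of the 7, and the other 3 IL-6 arrays lay within the range of the controls. The log2 means were 5.51 ± 0.05 (SD, n = 3) and 5.46 ± 0.10 (SD, n = 4). Their difference was -0.05 ± 0.06 (SE; limma adjusted p = 0.753; exact permutation p = 0.571). Its 95% interval ran from -12.3% to 6.84% of the control level.

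miR-10b-5p, from within the Hoxd4 span, had scaled intensities of 515, 504 and 546 in the controls and of 487, 518, 526 and 516 with IL-6. The groups overlapped, with the lowest value again in IL-6 replicate 1 and the highest in control 3. The log2 means were 9.03 ± 0.06 (SD, n = 3) and 8.998 ± 0.049 (SD, n = 4). The difference of -0.03 ± 0.04 (SE) did not pass the test (limma adjusted p = 0.777; exact permutation p = 0.543). The 95% interval was -8.39% to 5.02%, the narrowest among the 3 members that were not called.

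miR-196a-5p, which lies by Hoxc10, had scaled intensities of 146, 150.4 and 149 in the controls, which differed little among themselves. The IL-6 arrays gave 128, 152, 148 and 153. IL-6 replicate 1 stood below all others, and replicates 2 and 4 above all controls, so the groups overlapped. The log2 means were 7.21 ± 0.02 (SD, n = 3) and 7.18 ± 0.12 (SD, n = 4), with a difference of -0.03 ± 0.07 (SE; limma adjusted p = 0.839; exact permutation p = 0.943). The 95% interval was -13.0% to 9.74%. Without IL-6 replicate 1 the difference was 0.03.

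miR-196b-5p, which lies between Hoxa9 and Hoxa10, had scaled intensities of 291, 300.6 and 303 in the controls and of 337, 324, 341 and 342 with IL-6. Every IL-6 array lay above every control, and IL-6 replicate 1, the lowest array of the other members, was here close to replicates 3 and 4. The log2 means were 8.22 ± 0.03 (SD, n = 3) and 8.39 ± 0.04 (SD, n = 4). The difference was 0.17 ± 0.03 (SE) and ranked 7 by p among the 181 (limma adjusted p = 0.0212; exact permutation p = 0.0286, the smallest possible). Its 95% interval was 7.49% to 18.3%. Without the 5 tested miRNAs at the floor on all arrays, the SE was 0.05 and miR-196b-5p did not pass (limma adjusted p = 0.0676). Groups that did not overlap occurred in 40 of the 181 tested miRNAs (22.1%), with the IL-6 arrays higher in 21 (11.6%).

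**Figure D2:**
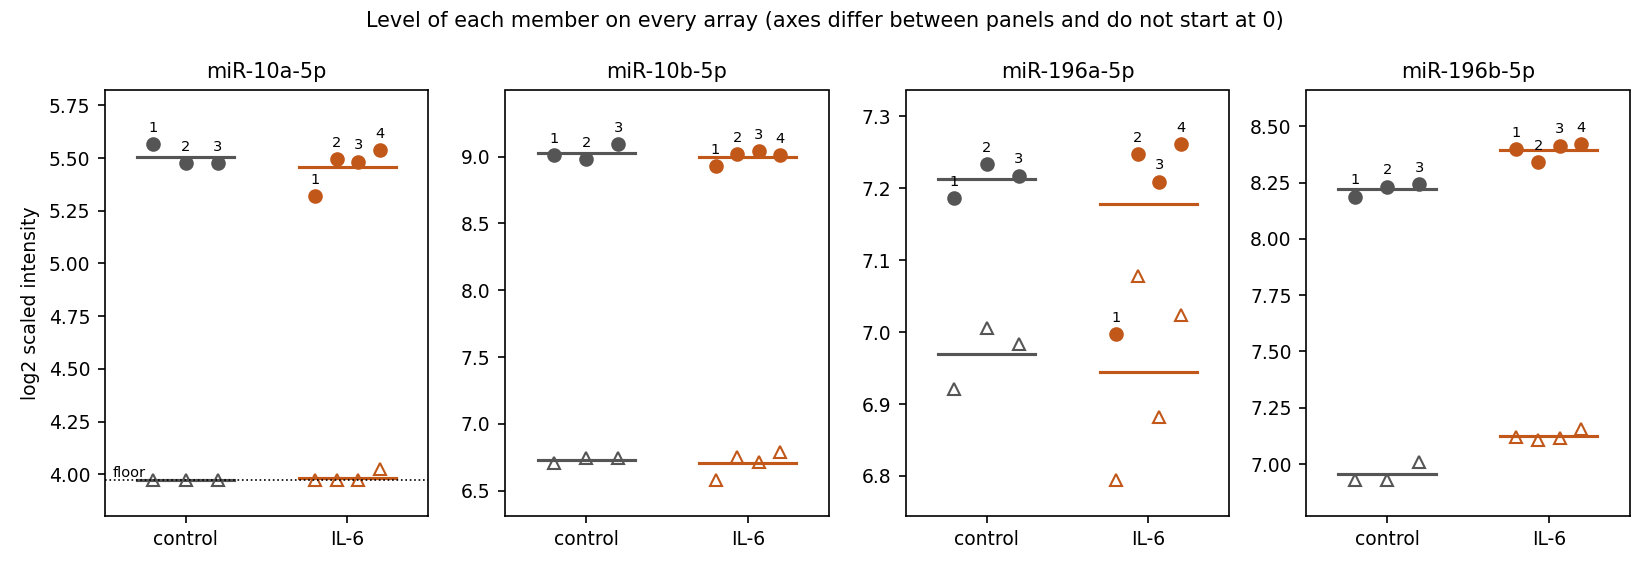
Log2 scaled intensity of each member on every array, by group, with replicate numbers at the probe used (filled circles) and the second probe as open triangles. Horizontal lines are group means; axes differ between panels and do not start at 0. For miR-196b-5p the IL-6 points of both probes lie above all control points, while the groups overlap for the other members.

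The replicate spots give the measuring error within an array. The miR-196b-5p probe used had 10 spots on each array, none left out as an outlier, with a coefficient of variation of 3.30% to 7.89% between spots. For miR-10b-5p this was 2.89% to 5.50%, for miR-196a-5p 4.44% to 9.81%, and for miR-10a-5p 4.39% to 11.0%. These last 3 probes lost 1, 2 and 3 of their 70 spots as outliers.

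The second probe of miR-196b-5p gave 122, 122 and 129 in the controls and 139, 138, 139 and 143 with IL-6. The groups of this probe did not overlap either, and the log2 difference was 0.17, or 12.5% (exact permutation p = 0.0286). The probes target the same molecules and are not independent replicates. The second probe of miR-10b-5p ran from 95.5 to 110 over all arrays, with a log2 difference of -0.02 (exact permutation p = 0.886). That of miR-196a-5p ran from 111 to 135, with a log2 difference of -0.03 (exact permutation p = 0.771). The second probe of miR-10a-5p, 1 base shorter than the one used, was well above background on 1 array and at the floor on 6 of 7, so it gives no difference.

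Unscaled, all members followed the overall brightness of the arrays. IL-6 replicate 2 had the largest scale factor, 1.25, and the highest unscaled intensity of every member. The lowest unscaled value of miR-10a-5p, miR-10b-5p and miR-196a-5p was on IL-6 replicate 1, with a scale factor of 0.882, and that of miR-196b-5p on control 1, with 0.852. Without scaling the groups of miR-196b-5p overlapped, since IL-6 replicate 1 read 297.6 and control 3 read 303.

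The difference therefore depends on what the arrays are set equal by. Over 5 other scalings and the deposited value table, the log2 difference of miR-196b-5p ran from 0.03 to 0.36, and the median of all tested miRNAs moved with it. The 0.03, with an SE of 0.28, came from the 75th percentile over all 1730 probes. Of these probes, 268 were well above background on all arrays. The median was -0.12 with the 75th percentile over all probes, 0.17 without scaling, 0.18 with spike-in scaling and 0.20 for the value table. Relative to the median of all tested miRNAs, miR-196b-5p stayed between 0.15 and 0.18 over these 7 settings, the main one included. Apart from quantile normalization, these settings multiply each whole array by a factor or leave it unscaled. That shifts all log2 values of an array alike, except at the floor. The narrow range was thus largely built in, and it adds no support. Quantile normalization, which could change the relative value, gave 0.16. With the normexp background correction the median was 0.08 and miR-196b-5p lay 0.075 above it. On the relative scale over the 7 settings miR-10a-5p ran from -0.14 to -0.04, miR-10b-5p from -0.05 to -0.0022 and miR-196a-5p from -0.06 to 0. In absolute terms these 3 members turned positive, at 0.13 to 0.16, in the value table and under no scaling or spike-in scaling. They were more negative, at -0.19 to -0.17, when scaled by the 75th percentile of all probes, and miR-10a-5p was -0.15 with quantile normalization; none of these passed the test.

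Leaving out each array in turn kept the difference of miR-196b-5p between 0.16 and 0.19. The call was kept in 3 of these 7 fits, without control 3 or IL-6 replicates 1 or 2. It was lost in 4 (limma adjusted p = 0.0747 without control 1, 0.0822 without control 2, 0.0701 without IL-6 replicate 3 and 0.0580 without IL-6 replicate 4). IL-6 replicates 3 and 4 were the most alike of all pairs of arrays, with an SD of the log2 difference over tested miRNAs of 0.09, against 0.12 to 0.27 for the other pairs. With these arrays averaged into 1, the difference was 0.17 (limma adjusted p = 0.0652).

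Slide columns 1, 3 and 4 each held 1 control and 1 IL-6 array, and IL-6 replicate 2 was alone in column 2. Deviations from the group means over all tested miRNAs correlated at 0.52, 0.19 and 0.13 between the arrays that shared a column. Between control and IL-6 arrays in different columns, the correlations ran from -0.44 to 0.29. Within these columns the log2 difference of miR-196b-5p was 0.21, 0.18 and 0.18. With the column as a block it was 0.19 and no longer passed (limma adjusted p = 0.0528); no miRNA passed in that fit in either direction, with 52 at an unadjusted p under 0.05. Within the same columns miR-10a-5p differed by -0.25, 0.0069 and 0.06, miR-10b-5p by -0.08, 0.06 and -0.08, and miR-196a-5p by -0.19, -0.02 and 0.04. The difference of miR-196b-5p was thus positive in each column, and those of the other members had no common sign. As every IL-6 array lay above every control for miR-196b-5p, any matching of arrays gives positive differences, so the columns add no support.

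**Figure D3:**
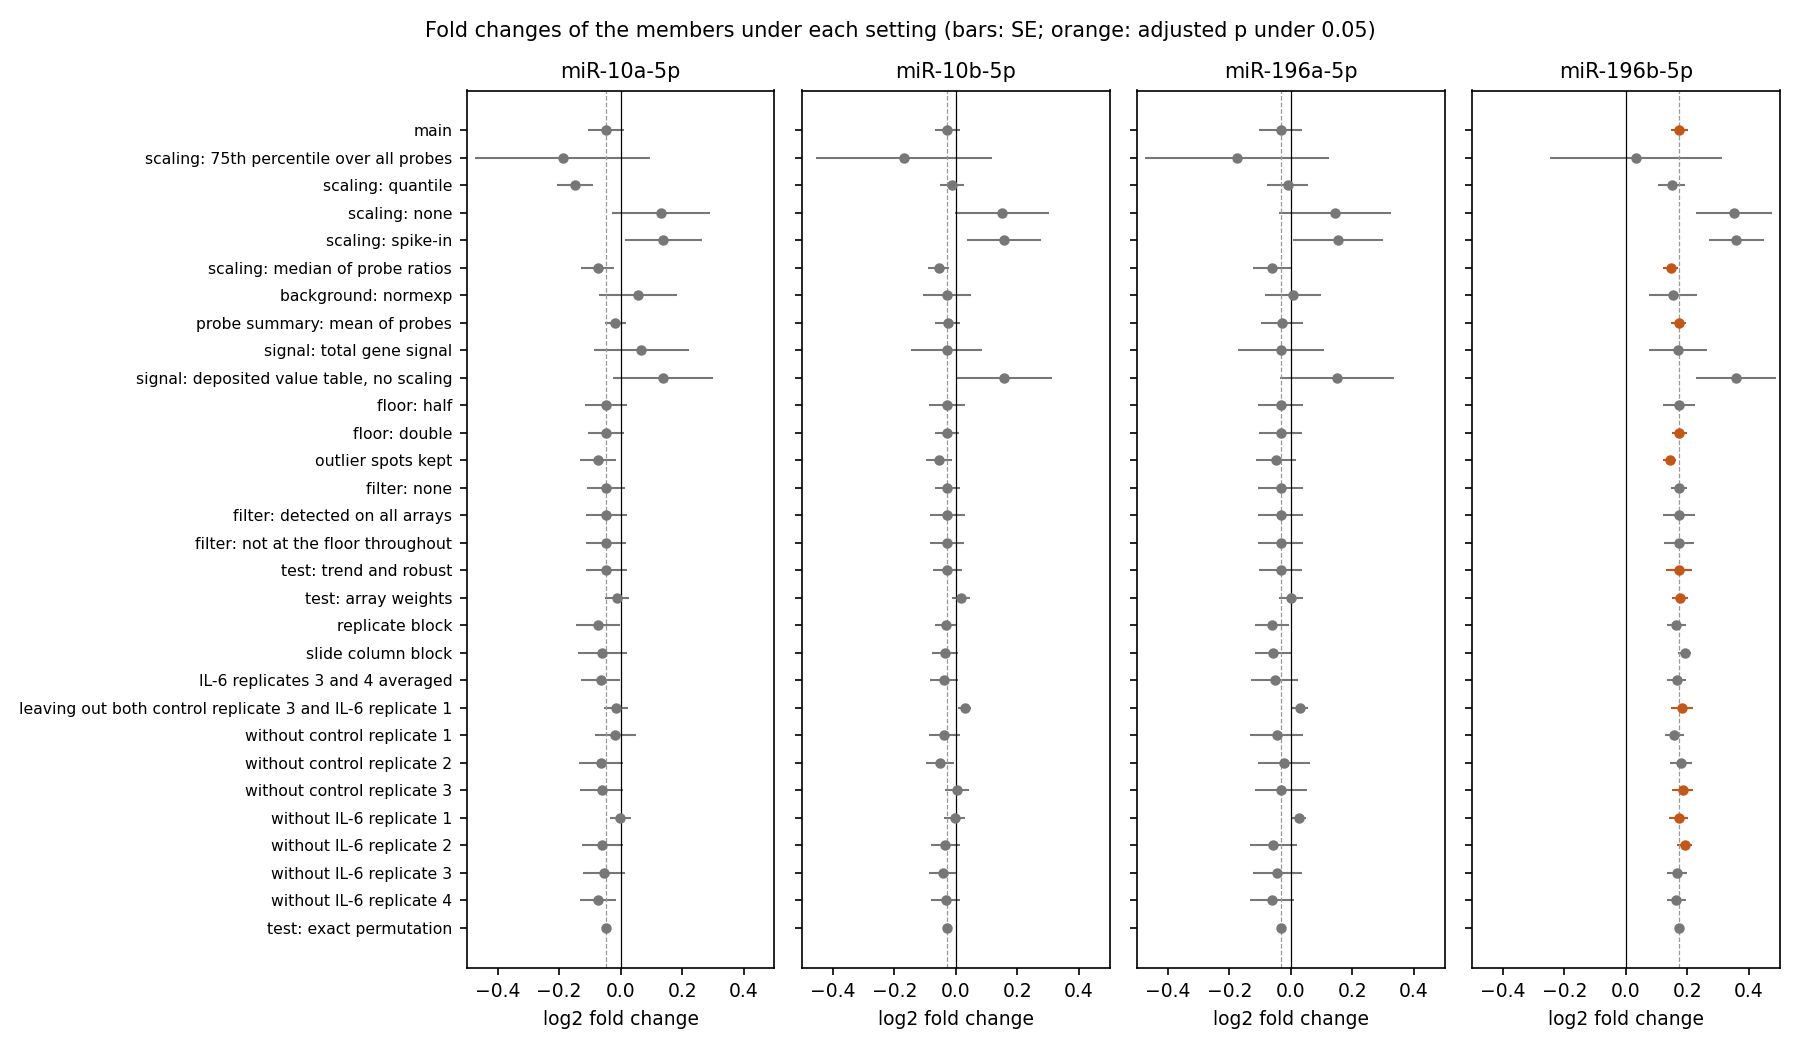
Log2 difference between IL-6 and control of each member (x axis) under the main setting and each alternative (y axis), with the SE as bars; orange marks a limma adjusted p below 0.05 and the dashed line the main value. miR-196b-5p lies right of 0 under all settings, from 0.03 to 0.36, and the other members lie on either side of 0. Many settings could not change the sign of miR-196b-5p, as every IL-6 array lay above every control.

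Differences between members within an array do not change when a whole array is multiplied by 1 factor, so the responses of the 4 miRNAs were also compared in this way; quantile normalization, which changes the shape of an array's distribution, does alter them. Over the 6 pairs, all 3 that contain miR-196b-5p had groups that did not overlap, and the other 3 overlapped. The 3 pairs share the values of miR-196b-5p, whose groups did not overlap by themselves, so they are not separate results. Among single tested miRNAs, 40 of 181 (22.1%) had groups that did not overlap. The share over all pairs of tested miRNAs was not counted. No pair passed after adjustment over the 6 pairs, where the smallest adjusted p that occurred was 0.0857. With a smallest exact p of 0.0286, a pair can pass only if more than 3 of the 6 reach it. The 3 pairs with miR-196b-5p could thus not pass by themselves, and their not passing decides nothing. In the sentences that follow, each array's difference is given after subtracting the mean of the controls.

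miR-196b-5p minus miR-196a-5p, the pair that differs by A12C, gave -0.0071, -0.0095 and 0.02 in the controls and 0.39, 0.09, 0.20 and 0.15 with IL-6. The controls lay close together and all IL-6 arrays above them, with replicate 1 the farthest. The mean shift was 0.21 ± 0.08 (SE), or 15.4% (exact permutation p = 0.0571, adjusted 0.114). For miR-196b-5p minus miR-10b-5p the shift was 0.20 ± 0.04 (SE), with IL-6 arrays from 0.13 to 0.28 and controls from -0.04 to 0.06 (exact permutation p = 0.0286, adjusted 0.0857). For miR-196b-5p minus miR-10a-5p it was 0.22 ± 0.07 (SE), with IL-6 arrays from 0.13 to 0.36 and controls from -0.09 to 0.05 (exact permutation p = 0.0286, adjusted 0.0857).

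Among the other 3 members the shifts were near 0. miR-10b-5p minus miR-10a-5p shifted by 0.02 ± 0.05 (SE; exact permutation p = 0.743). miR-196a-5p minus miR-10a-5p shifted by 0.01 ± 0.04 (SE; exact permutation p = 0.771). miR-196a-5p minus miR-10b-5p shifted by -0.0057 ± 0.06 (SE; exact permutation p = 0.857). A p above the threshold does not show that these 3 respond alike. With quantile normalization, run for the pairs after seeing the data, miR-10b-5p minus miR-10a-5p shifted by 0.14 (exact permutation p = 0.143, adjusted 0.171) and miR-196a-5p minus miR-10a-5p by 0.14 (exact permutation p = 0.0286, adjusted 0.0429). The 3 pairs with miR-196b-5p then shifted by 0.16 to 0.30 and passed after adjustment (exact permutation p = 0.0286, adjusted 0.0429 for each). They could pass only because miR-196a-5p minus miR-10a-5p also reached the smallest exact p. With the normexp background correction or total gene signal, miR-196b-5p minus miR-10a-5p shifted by only 0.096 (exact permutation p = 0.514) or 0.10 (exact permutation p = 0.314).

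**Figure D4:**
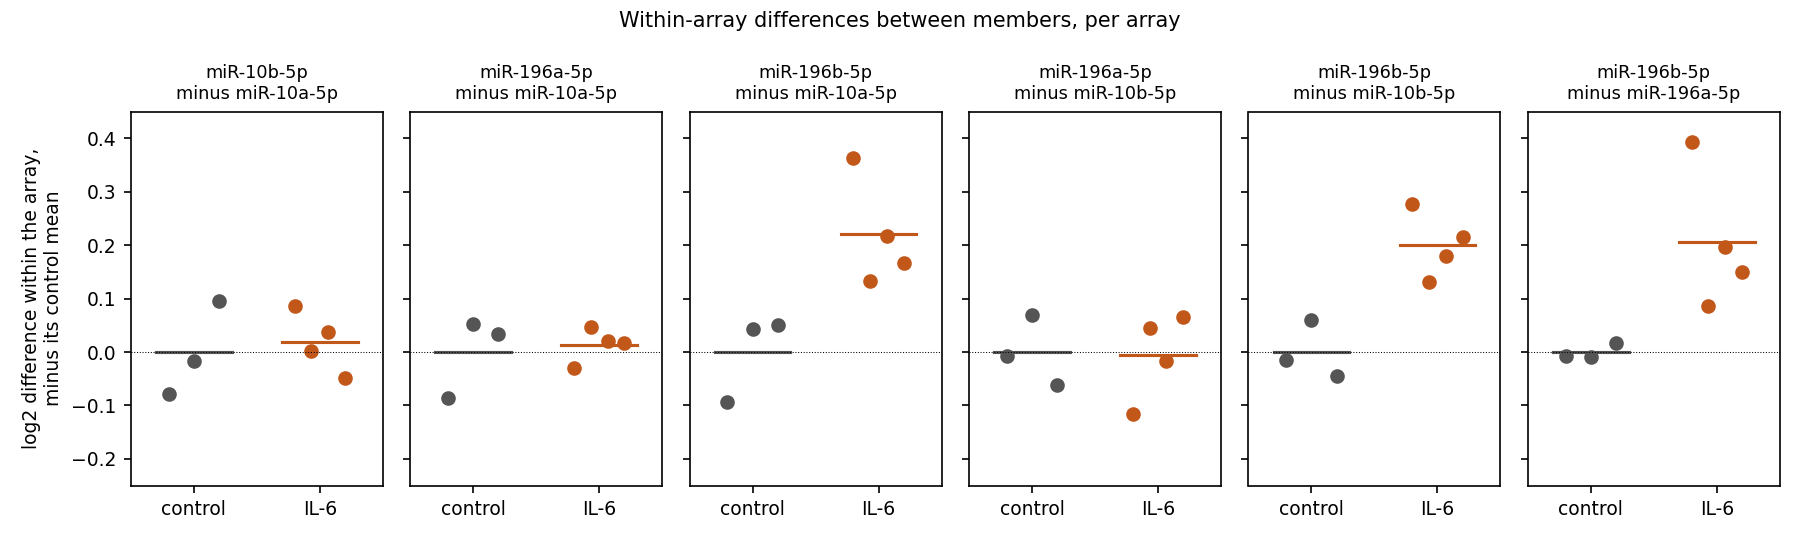
Log2 difference between 2 members within an array, minus the mean of that difference over the controls, for the 6 pairs; points are arrays and horizontal lines group means. In the 3 pairs with miR-196b-5p, which share its values, the IL-6 arrays, from 0.09 to 0.39, lie above all controls. In the other pairs the groups overlap.

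The other Hox-cluster miRNAs on the array were 7, of which 1 was tested and 0 were called. miR-196c-5p, from the Hoxb cluster, was detected on all arrays, with scaled intensities of 42.6, 43.3 and 46.3 in the controls and 38.3, 45.8, 42.0 and 51.3 with IL-6. The IL-6 arrays reached below and above the controls, with replicate 1 lowest and replicate 4 highest. The log2 difference was 0.0032 ± 0.10 (SE; limma adjusted p = 1.00). The opposite arms of the members' hairpins (miR-10a-3p, miR-10b-3p, miR-196a-3p and miR-196b-3p), miR-196c-3p and miR-615, which lies within the annotated spans of Hoxc5 and Hoxc6, were detected on 0 arrays. Their highest scaled intensities ran from -3.62 to 4.10, under the floor. So of the member hairpins the 5p arm alone was measured above background.

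The miR-99, miR-100 and miR-125 miRNAs are relatives of miR-10 by sequence and lie outside the Hox clusters. All 5 tested were detected on every array and 0 were called, with log2 differences from -0.04 to 0.02 and adjusted p from 0.505 to 0.909 (limma). The differences were -0.03 ± 0.04 (SE) for miR-99a-5p, -0.01 ± 0.05 for miR-99b-5p, 0.02 ± 0.05 for miR-100-5p, -0.0060 ± 0.03 for miR-125a-5p and -0.04 ± 0.03 for miR-125b-5p. Of the miR-10 members, miR-10b-5p, at -0.03, lay within this range and miR-10a-5p, at -0.05, just below it.

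**Figure D5:**
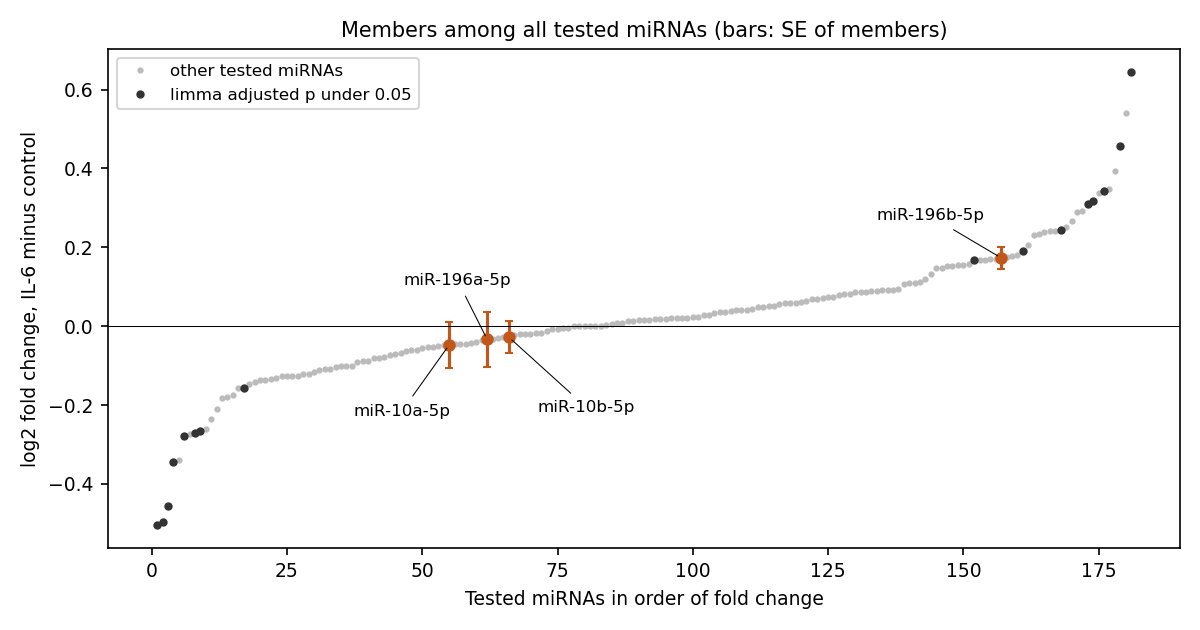
Log2 difference between IL-6 and control (y axis) of all 181 tested miRNAs in order of size (x axis), with the members in orange and their SE as bars, and other miRNAs of limma adjusted p below 0.05 in black. miR-196b-5p, at 0.17, lies in the upper part of the order, and the other members, from -0.05 to -0.03, in its flat middle.

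The miRNAs with profiles most like each member were found by the root mean square (RMS) difference of log2 profiles over the 7 arrays, each centred on its own mean. For miR-196b-5p they were miR-185-5p (RMS 0.0210), miR-30a-5p (0.0270) and miR-152-3p (0.0308), where the median over all tested miRNAs was 0.122. Their log2 differences between groups were 0.17 for miR-185-5p (limma adjusted p = 0.0400), 0.15 for miR-30a-5p (0.0763) and 0.19 for miR-152-3p (0.0224). The difference between groups is part of the profiles that were matched, so like differences follow from the choice. For miR-10a-5p the nearest was miR-196a-5p (RMS 0.0456), then miR-329-3p (0.0501) and miR-103-3p (0.0528). For miR-196a-5p they were miR-28-5p (RMS 0.0302), miR-20b-5p (0.0351) and miR-10a-5p (0.0456). For miR-10b-5p they were miR-34a-5p (RMS 0.0327), let-7d-5p (0.0380) and miR-148b-3p (0.0393). miR-10a-5p and miR-196a-5p, from different families and clusters, thus stood in each other's nearest 3, and miR-196b-5p was in the nearest 3 of no other member. These likenesses describe 7 arrays that share a slide and a scaling, and have no test.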

How the data were processed

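Cy3-labelled total RNA was measured on 1-colour Agilent rat miRNA arrays, all on 1 slide, per the labels' protocols and the file headers. The deposited spot intensities come from Agilent Feature Extraction 10.10.1.1, per the submitters' processing notes; the processed signal is background-subtracted and linear, per the file headers. The deposited table of values repeats the scanner files' total probe signal (largest difference 0), unscaled; its array medians ran from -1.35 to 0.10. Control spots and outlier spots (2.88% to 3.84% of 14380) were left out. A probe was well above background where a share of at least 0.5 of its spots was; detection is Feature Extraction's call. The floor was set after scaling, from each array's lowest scaled signal above background (median over arrays). limma 3.58.1 in R 4.3.3 (lmFit, eBayes) was used on log2 values. Precision is limited by the number of arrays.

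The members, lists and alternatives were chosen with earlier results of these data known. Besides the members, the text names other Hox-cluster miRNAs, relatives of miR-10, and for each member the 3 nearest profiles. Fits without an array kept the scaling and filter from all 7.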

Additional observations from a re-analysis of the deposited data

Results flagged for a closer look

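The check for an array far from the other IL-6 arrays covered 20 sets of values. These were levels of the members, their second probes, miR-196c-5p and the miR-99, miR-100 and miR-125 miRNAs, and the pair differences between members. Of the 20 sets, 1 stood out, where chance gives about 1 in 20. The second probe of miR-10a-5p had a log2 level of 4.02 on IL-6 replicate 4, while the other 3 IL-6 arrays were at the floor of 3.97. The gap was the whole range of the group (ratio 1). With the other 3 arrays set to the same floor, any value above it gives that ratio, so the chance rate does not apply. The probe was not well above background on that array. The probe used for miR-10a-5p is another one; the second probe enters the mean of probes, and total gene signal is a sum over a miRNA's probes.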

How the results depend on the processing

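For miR-196b-5p the log2 difference and limma adjusted p were 0.032 (1.00) when scaled by the 75th percentile of all probes, 0.15 (0.0949) with quantile scaling, 0.35 (0.311) unscaled, 0.36 (0.0898) with spike-in scaling, 0.36 (0.289) in the value table, 0.15 (0.702) with normexp and 0.17 (0.456) with total gene signal. They were 0.17 with the lower floor (0.0773), no filter (0.103), miRNAs detected on all arrays (0.0680) or not at the floor throughout (0.0676), IL-6 replicates 3 and 4 averaged (0.0652) and the exact permutation test (0.199), and 0.19 (0.0528) with the slide column as a block. Without 1 array the difference was 0.16 to 0.19, and the call was lost in 4 of 7 such fits. With these and the replicate block the call was lost in 19 of 29 alternatives and held in 10, with adjusted p from 0.00786. The exact permutation test could not pass after adjustment unless most tested miRNAs reached its smallest p.

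Samples with the same replicate number did not all deviate together (correlations over miRNAs of 0.52, -0.18 and 0.26). The arrays of replicate 1, at 0.52, also shared slide column 1. Whether the numbers pair the samples cannot be told from these values. With the replicate number as a block the difference of miR-196b-5p was 0.16 (limma adjusted p = 0.117), and 0 miRNAs were higher and 3 lower (45 with an unadjusted p under 0.05).

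The other members turned positive under some alternatives, and passed the threshold under none of the 29. Scaled by the 75th percentile of all probes, miR-10a-5p, miR-10b-5p and miR-196a-5p were -0.19, -0.17 and -0.17, and with quantile scaling -0.15, -0.012 and -0.0100. miR-10a-5p was 0.13 unscaled, 0.14 with spike-in scaling, 0.14 in the value table, 0.057 with normexp and 0.067 with total gene signal. miR-10b-5p was 0.15, 0.16 and 0.16 in the first 3, 0.018 with array weights and 0.029 without both control 3 and IL-6 replicate 1. miR-196a-5p was 0.14, 0.15 and 0.15 in the first 3, 0.0074 with normexp, 8.3e-04 with array weights and 0.029 without both arrays. Without 1 array, miR-10a-5p ran from -0.074 to -9.2e-04, miR-10b-5p from -0.052 to 0.0050 (without control 3) and miR-196a-5p from -0.061 to 0.027 (without IL-6 replicate 1).

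The pair differences with miR-196b-5p stayed positive in all 17 alternatives, but most of these could not change the sign. Other floors and the unscaled value table leave differences within an array almost as they were. In these pairs every IL-6 array lay above every control, so leaving out or averaging arrays could not turn them negative. miR-196b-5p minus miR-10a-5p was 0.096 with normexp and 0.10 with total gene signal. With quantile scaling, added after seeing the data, the differences of miR-196b-5p from miR-10a-5p, miR-10b-5p and miR-196a-5p were 0.298, 0.16 and 0.16, that of miR-196a-5p from miR-10a-5p 0.14 (these 4 at adjusted p = 0.0429, exact permutation), that of miR-10b-5p from miR-10a-5p 0.14 and that of miR-196a-5p from miR-10b-5p 0.0022. miR-10b-5p minus miR-10a-5p became -0.084 with normexp, -0.0092 with the mean of probes and -0.097 with total gene signal, and -0.020 to 0.067 without 1 array. miR-196a-5p minus miR-10a-5p became -0.049, -0.012 and -0.099 in the same settings, -0.029 to 0.039 without 1 array, and 0.045 without both control 3 and IL-6 replicate 1. miR-196a-5p minus miR-10b-5p became 0.035 with normexp, 0.0069 with outlier spots kept and 5.2e-04 without both arrays, and -0.036 to 0.031 without 1 array.

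The counts of 9 higher and 8 lower miRNAs (limma) were 0 and 0 when scaled by the 75th percentile of all probes (1 with an unadjusted p under 0.05), unscaled (29), with normexp (7), in the value table (28), without a filter (41), with the slide column block (52) and without control 1 (35). They were 4 and 0 with spike-in scaling, 7 and 11 with quantile scaling, 11 and 14 with the median of probe ratios, 3 and 2 with total gene signal, 6 and 5 with the higher floor, 9 and 14 with outlier spots kept, 29 and 18 with array weights, 1 and 5 with replicates 3 and 4 averaged, and 20 and 11 without both arrays. Without 1 array they ran from 0 to 10 higher and 0 to 7 lower, with 0 and 2 without control 2, 1 and 4 without IL-6 replicate 3, and 1 and 5 without IL-6 replicate 4. The cause of these changes was not tested.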
